A study of Mus musculus with 12 samples.

Results

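The response of mouse liver selenoprotein genes to high against adequate dietary selenium is described here, within TrspA37G mice and within wild-type mice, side by side. The members were taken as every gene in the deposited tables, 23 selenoprotein genes in all, in the 8 of 12 libraries made at 2.0 or 0.1 ppm selenium. The compared groups were TrspA37G at 2.0 ppm, TrspA37G at 0.1 ppm, wild type at 2.0 ppm and wild type at 0.1 ppm, each with 1 ribosome footprint library and 1 mRNA library. All mice were FVB/N, and all were fed their diet for 6 weeks. TrspA37G mice carried 20 copies of a transgene for a mutant selenocysteine (Sec) tRNA, and the labels name no deletion of the endogenous Sec tRNA gene. The age in the labels, 3 weeks, is below the time on the diet, so the age at sampling is unknown. So is the number of mice behind each library. The tables hold selenoprotein genes alone, so neither liver markers nor the transgene could be checked.

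Sec is the amino acid at the active site of most selenoproteins, and it is inserted at a UGA codon, which in other mRNAs ends translation. Insertion needs the Sec tRNA and a structure in the 3′ untranslated region of the mRNA, and the ribosomes that reach the far side of the UGA are those that did not end there. The mutation in TrspA37G lies next to the anticodon, where the normal tRNA carries a modified base. Liver makes many selenoproteins, among them the one that carries selenium in plasma, and some of them are known to follow the selenium supply more closely than others.

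The bases around the first Sec codon are shown for the 3 genes whose readthrough responses were called different between genotypes (Gpx1, Sepp1 and Selt) and for Sephs2, which was called upstream of its UGA in wild type. The lines give 27 nt of sense strand from GENCODE M21 on GRCm38, with the Sec codon in capitals.
Gpx1: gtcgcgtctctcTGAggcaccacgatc
Sephs2: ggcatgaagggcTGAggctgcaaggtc
Sepp1: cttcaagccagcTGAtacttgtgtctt
Selt: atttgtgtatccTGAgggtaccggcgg
The Sec codon of Gpx1 is codon 47, in the coding sequence of exon 1 of 2, at chr9:108339451-108339453 on the plus strand. That of Sephs2 is codon 63, in its single exon, at chr7:127273731-127273733 on the minus strand. Sepp1 (Selenop in the current annotation) holds 10 Sec codons, of which the first is codon 59, in exon 2 of 5, at chr15:3274848-3274850 on the plus strand. The Sec codon of Selt (Selenot in the current annotation) is codon 49, in exon 2 of 6, at chr3:58585238-58585240 on the plus strand. The base after the UGA was G in 12 of the 23 genes, C in 6, A in 3 and T in 2, Selo and Sepp1. The readthrough responses of genes with G there ran from −0.78 (Selt) to 0.07 (Gpx4) on the log2 scale in TrspA37G livers and from −0.98 (Gpx1) to 0.30 (Selt) in wild-type livers. Those of genes with C ran from −0.56 (Seli) to 1.22 (Selm) and from −0.43 (Selh) to 0.00 (Selm), so the classes overlapped in both genotypes.

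Footprints mark the stretches of mRNA covered by ribosomes, and were given by the authors as RPFKM over the coding sequence, reads divided by region length and by the mapped reads of the library. The mRNA was given in the same way as RPKM over the whole transcript. The 8 libraries held 17763406 to 30296837 mapped footprints and 10669213 to 14220047 mapped mRNA reads. Translational efficiency is the footprint density of the coding sequence over the mRNA RPKM. The readthrough ratio divides the density of footprints 3′ of the first Sec codon by that 5′ of it in the same library, so library scaling cancels. A change in either window moves it, and the upstream window is short in several genes. It spans 78 nt in Gpx1, 84 nt in Selt, 114 nt in Sepp1 and 126 nt in Sephs2. Each comparison set 1 library against 1 library, so it has no replicate check and no p-value. The 95% intervals given after ratios come from the reads alone, and neither differences between mice nor between library preparations are in them. A gene was called higher or lower when its ratio was at least 1.5-fold and its interval excluded no change. In bulk liver, less RNA per cell and fewer cells of a type cannot be told apart.

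High selenium went with few called genes. No gene was called in the same readout in both genotypes, but with so few calls an overlap was hardly possible, so this says little about the genotypes. Of 23 genes, 20 held enough reads for the mRNA, footprint and efficiency comparisons. In TrspA37G livers the 2.0 ppm diet gave no call in footprints (0 of 20, 0%), a single lower call in mRNA (1 of 20, 5%, Txnrd2) and a single lower call in readthrough (1 of 11, 9.09%, Selt). In wild-type livers it gave 3 higher footprint calls (3 of 20, 15%, Gpx1, Gpx3 and Selh), 1 higher mRNA call (1 of 20, 5%, Gpx3), 1 higher efficiency call (1 of 20, 5%, Gpx1) and 1 lower readthrough call (1 of 12, 8.33%, Gpx1). The counting interval excluded no change for more genes than were called. For footprints in TrspA37G livers it did so for 7 genes above 0 and 3 below, and in wild-type livers for 9 above and 0 below.

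**Figure D1:**
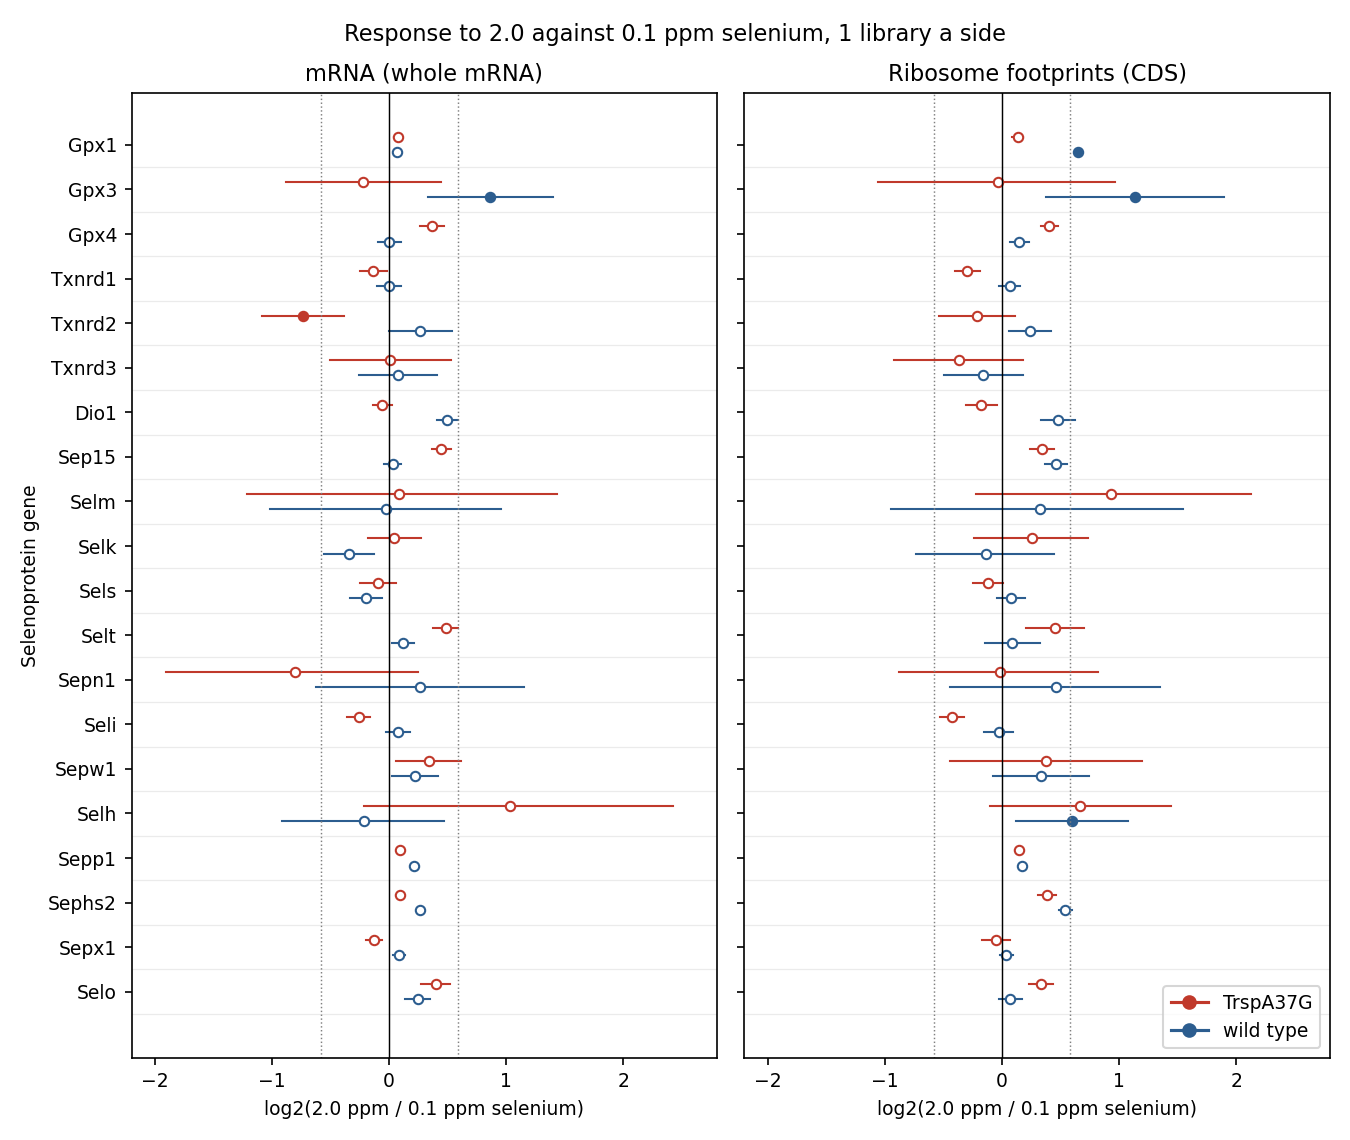
log2 ratio of 2.0 against 0.1 ppm selenium for the 20 genes with enough reads (rows), in mRNA (left) and coding-sequence footprints (right), with TrspA37G (red) above wild type (blue) in each row. Bars are 95% counting intervals, filled symbols are called genes, and dotted lines mark 1.5-fold. Most symbols lie between the dotted lines, and the filled ones are Txnrd2 mRNA in TrspA37G, at −0.73, and Gpx3 mRNA and Gpx1, Gpx3 and Selh footprints in wild type.

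Over the 20 genes the median footprint response was 0.14 on the log2 scale in TrspA37G livers and 0.21 in wild-type livers. Footprints were above 0 in 11 genes and below in 9 in TrspA37G, and above in 17 and below in 3 in wild type. The median mRNA response was 0.06 in TrspA37G and 0.08 in wild type. Summed over the coding sequences, selenoprotein footprints were 0.143% of mapped footprints at 2.0 ppm and 0.131% at 0.1 ppm in TrspA37G, and 0.458% at 2.0 ppm and 0.341% at 0.1 ppm in wild type. The ratio was 1.10 in TrspA37G, with or without Gpx1. In wild type it was 1.34 with Gpx1 and 1.15 without it, so much of the wild-type difference lay in Gpx1.

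Gpx1, the cytosolic glutathione peroxidase that reduces hydrogen peroxide, had readthrough responses that were called different between the genotypes. Its mRNA stood at 1185 RPKM at 2.0 ppm and 1125 RPKM at 0.1 ppm in TrspA37G livers, and at 2437 RPKM at 2.0 ppm and 2327 RPKM at 0.1 ppm in wild-type livers. The ratio was 1.05 in both genotypes. Coding-sequence footprints of Gpx1 stood at 506 RPFKM at 2.0 ppm and 461 RPFKM at 0.1 ppm in TrspA37G, a ratio of 1.10 (1.06 to 1.14). In wild type they stood at 4501 RPFKM at 2.0 ppm and 2863 RPFKM at 0.1 ppm, and rose 1.57-fold (1.55 to 1.59). Translational efficiency of Gpx1 was 0.427 at 2.0 ppm and 0.410 at 0.1 ppm in TrspA37G, and 1.85 at 2.0 ppm and 1.23 at 0.1 ppm in wild type, where it rose by 0.59 on the log2 scale (0.56 to 0.62), just past 1.5-fold. When libraries were scaled to the median selenoprotein gene, the Gpx1 footprint response in wild type was 0.45 on the log2 scale and the efficiency response 0.46, and neither passed 1.5-fold. The difference between genotypes, TrspA37G minus wild type, was −0.52 (−0.57 to −0.47) for footprints and −0.53 (−0.59 to −0.46) for efficiency, just inside 1.5-fold.

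The footprints of Gpx1 were not spread evenly, and the windows of the coding sequence did not move together. Upstream of the UGA, density stood at 304 RPFKM at 2.0 ppm and 207 RPFKM at 0.1 ppm in TrspA37G, a ratio of 1.47 (1.29 to 1.66). The wild-type values were 2316 RPFKM at 2.0 ppm and 946 RPFKM at 0.1 ppm, and density rose 2.45-fold (2.32 to 2.58). Downstream of the UGA the values were 110 RPFKM at 2.0 ppm and 79.8 RPFKM at 0.1 ppm in TrspA37G, a ratio of 1.38, and 1105 RPFKM at 2.0 ppm and 890 RPFKM at 0.1 ppm in wild type, a ratio of 1.24 (1.21 to 1.28). The upstream response of wild type was thus larger than the downstream one. The readthrough ratio was 0.362 at 2.0 ppm and 0.385 at 0.1 ppm in TrspA37G, 1.06-fold lower (0.916 to 1.24) and within counting error. In wild type the ratio was 0.477 at 2.0 ppm and 0.940 at 0.1 ppm, and fell 1.97-fold (1.86 to 2.09). The 2 genotypes, which stood far apart at 0.1 ppm, were therefore closer at 2.0 ppm. The difference between the readthrough responses was 0.89 (0.66 to 1.12) on the log2 scale. The same ratio taken on mRNA reads, which holds no ribosomes, was 1.90 at 2.0 ppm and 1.99 at 0.1 ppm in TrspA37G and 1.57 at 2.0 ppm and 1.65 at 0.1 ppm in wild type, with a difference between responses within counting error.

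Most Gpx1 footprints lay in the 18 nt that neither window holds, placed here at the 6 codons that end in the UGA. That stretch is 3.30% of the length of the coding-sequence window. In TrspA37G it held 73.5% of Gpx1 footprints at 2.0 ppm (72.4% to 74.6%) and 79.3% at 0.1 ppm (78.4% to 80.2%). The wild-type share was 72.4% at 2.0 ppm (72.0% to 72.8%) and 69.7% at 0.1 ppm (69.3% to 70.1%). The share was therefore lower at 2.0 ppm in TrspA37G and higher at 2.0 ppm in wild type, both beyond counting error. Of Gpx1 mRNA reads the stretch held 26.8% at 2.0 ppm and 27.1% at 0.1 ppm in TrspA37G and 22.6% at both diets in wild type, so neither genotype had such a shift in mRNA. The mRNA shares were themselves far above 3.30%, so reads gathered in this stretch without ribosomes too. With the stretch left out, the Gpx1 footprint response was 0.49 in TrspA37G and 0.52 in wild type, neither called, and the difference between genotypes was −0.02. The larger coding-sequence response of wild type thus lay in the reads of that stretch.

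**Figure D2:**
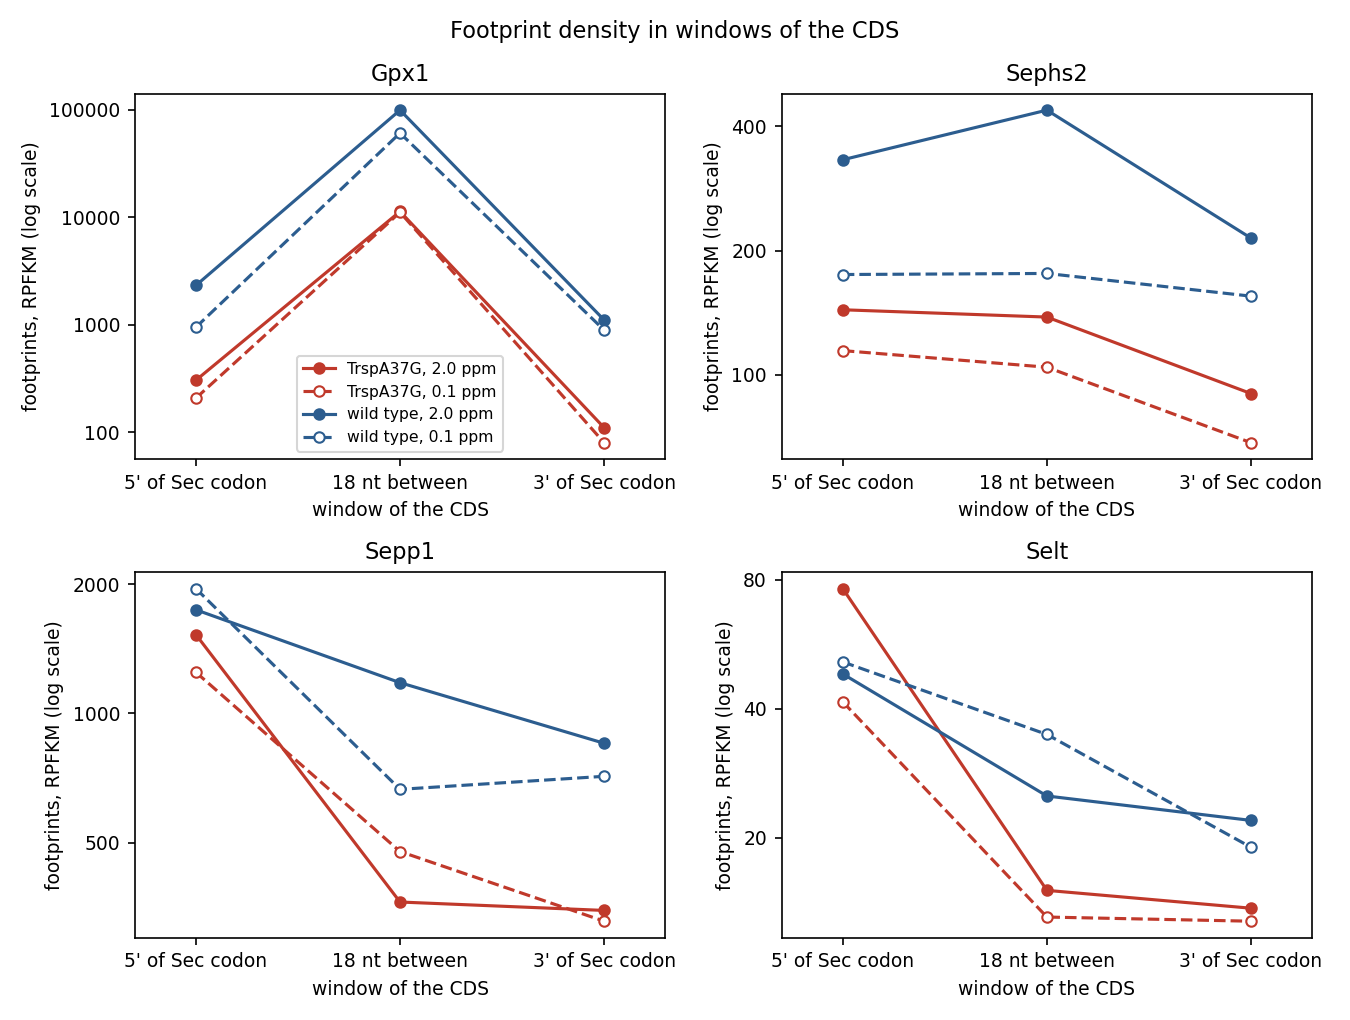
Footprint density (RPFKM, log scale) 5′ of the first Sec codon, in the 18 nt between the windows and 3′ of the Sec codon, for Gpx1, Sephs2, Sepp1 and Selt. Each line is 1 library, with filled symbols for 2.0 ppm and open symbols for 0.1 ppm. In wild type the filled Gpx1 symbol lies above the open one by 2.45-fold upstream and by 1.24-fold downstream, while the Sepp1 lines of wild type cross.

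The other glutathione peroxidases differed from Gpx1. Gpx4, which reduces lipid hydroperoxides in membranes, had 167 RPKM of mRNA at 2.0 ppm and 130 RPKM at 0.1 ppm in TrspA37G, and 126 RPKM at both in wild type. Gpx4 footprints stood at 265 RPFKM at 2.0 ppm and 200 RPFKM at 0.1 ppm in TrspA37G, a ratio of 1.32 (1.26 to 1.39), and at 212 RPFKM at 2.0 ppm and 191 RPFKM at 0.1 ppm in wild type, a ratio of 1.11 (1.05 to 1.17). Unlike Gpx1, its ratio was higher in TrspA37G than in wild type, and it was called in neither. Its readthrough ratio was 0.150 at 2.0 ppm and 0.142 at 0.1 ppm in TrspA37G, and 0.152 at 2.0 ppm and 0.179 at 0.1 ppm in wild type, 1.18-fold lower (1.04 to 1.34).

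Gpx3, the plasma glutathione peroxidase, most of which is made in kidney, was scarce in these livers. Gpx3 mRNA stood at 2.12 RPKM at 2.0 ppm and 2.47 RPKM at 0.1 ppm in TrspA37G, and at 4.20 RPKM at 2.0 ppm and 2.32 RPKM at 0.1 ppm in wild type. Gpx3 footprints stood at 1.16 RPFKM at 2.0 ppm and 1.19 RPFKM at 0.1 ppm in TrspA37G, and at 3.26 RPFKM at 2.0 ppm and 1.49 RPFKM at 0.1 ppm in wild type, where they rose 2.19-fold (1.30 to 3.73) on 36 reads at 2.0 ppm and 28 at 0.1 ppm. Downstream of its UGA, where 1 of 13 genes was called higher in wild type (7.69%), Gpx3 was that gene, at 0.707 RPFKM at 2.0 ppm and 0.900 RPFKM at 0.1 ppm in TrspA37G and 2.90 RPFKM at 2.0 ppm and 1.33 RPFKM at 0.1 ppm in wild type. It was the only called footprint response in wild type that stayed past 1.5-fold after scaling to the median gene. The mRNA response differed between genotypes by −1.08 (−1.89 to −0.27) on the log2 scale. Counted over the coding-sequence window in place of the whole mRNA, the mRNA response of Gpx3 in wild type was 0.66 and its interval held no change, and the difference between genotypes was −0.79 (−1.96 to 0.37). Over the 3 glutathione peroxidases with enough reads, the median footprint response was 0.13 in TrspA37G and 0.65 in wild type, beside 0.14 and 0.21 over all 20 genes. Both medians are the values of Gpx1 itself. The response of Gpx3 was −0.03 in TrspA37G and 1.13 in wild type, while Gpx4 went the other way, at 0.40 and 0.15. Gpx2, the peroxidase of gut epithelium, had too few reads.

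Sepp1, made and secreted by liver, carries selenium in plasma, and its first UGA stands far upstream of the other 9. Sepp1 mRNA stood at 2163 RPKM at 2.0 ppm and 2025 RPKM at 0.1 ppm in TrspA37G, and at 3045 RPKM at 2.0 ppm and 2630 RPKM at 0.1 ppm in wild type, ratios of 1.07 and 1.16. Coding-sequence footprints stood at 472 RPFKM at 2.0 ppm and 427 RPFKM at 0.1 ppm in TrspA37G, and at 951 RPFKM at 2.0 ppm and 843 RPFKM at 0.1 ppm in wild type, ratios of 1.10 and 1.13. On this whole-gene measure the responses of the genotypes differed by −0.03 (−0.08 to 0.01). The readthrough ratio moved in opposite directions. It was 0.228 at 2.0 ppm and 0.263 at 0.1 ppm in TrspA37G, 1.16-fold lower (1.10 to 1.22), and 0.489 at 2.0 ppm and 0.366 at 0.1 ppm in wild type, 1.34-fold higher (1.28 to 1.40). Neither response reached 1.5-fold, but their difference did, at −0.63 (−0.73 to −0.53) on the log2 scale. Upstream of the UGA, density was 1526 RPFKM at 2.0 ppm and 1247 RPFKM at 0.1 ppm in TrspA37G and 1743 RPFKM at 2.0 ppm and 1952 RPFKM at 0.1 ppm in wild type. Downstream it was 348 RPFKM at 2.0 ppm and 328 RPFKM at 0.1 ppm in TrspA37G and 852 RPFKM at 2.0 ppm and 714 RPFKM at 0.1 ppm in wild type. Wild type at 2.0 ppm therefore had fewer footprints before the UGA and more after it than wild type at 0.1 ppm. The 3′ over 5′ ratio of Sepp1 mRNA reads was 1.60 at 2.0 ppm and 1.52 at 0.1 ppm in TrspA37G and 1.54 at 2.0 ppm and 1.51 at 0.1 ppm in wild type.

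Sephs2 is the selenophosphate synthetase that makes the selenium donor for Sec, and is itself a selenoprotein. Its mRNA stood at 650 RPKM at 2.0 ppm and 610 RPKM at 0.1 ppm in TrspA37G, and at 768 RPKM at 2.0 ppm and 638 RPKM at 0.1 ppm in wild type, a ratio of 1.20 (1.18 to 1.23). Sephs2 footprints stood at 95.9 RPFKM at 2.0 ppm and 73.4 RPFKM at 0.1 ppm in TrspA37G, a ratio of 1.31 (1.24 to 1.38), and at 229 RPFKM at 2.0 ppm and 157 RPFKM at 0.1 ppm in wild type, a ratio of 1.45 (1.40 to 1.51). Both genotypes thus had ratios above 1 without a call. Upstream of its UGA the values were 144 RPFKM at 2.0 ppm and 114 RPFKM at 0.1 ppm in TrspA37G, a ratio of 1.26 (1.09 to 1.44), and 332 RPFKM at 2.0 ppm and 175 RPFKM at 0.1 ppm in wild type, where density rose 1.90-fold (1.71 to 2.11). Over the 19 genes with enough upstream reads, 2 were called higher in wild type (10.5%), Gpx1 and Sephs2, and 1 in TrspA37G (5.26%), Selt. The readthrough ratio of Sephs2 was 0.627 at 2.0 ppm and 0.598 at 0.1 ppm in TrspA37G, and 0.646 at 2.0 ppm and 0.886 at 0.1 ppm in wild type, 1.37-fold lower (1.23 to 1.53). The difference between these responses, 0.52 (0.26 to 0.79), had the sign of the Gpx1 difference but did not reach 1.5-fold.

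**Figure D3:**
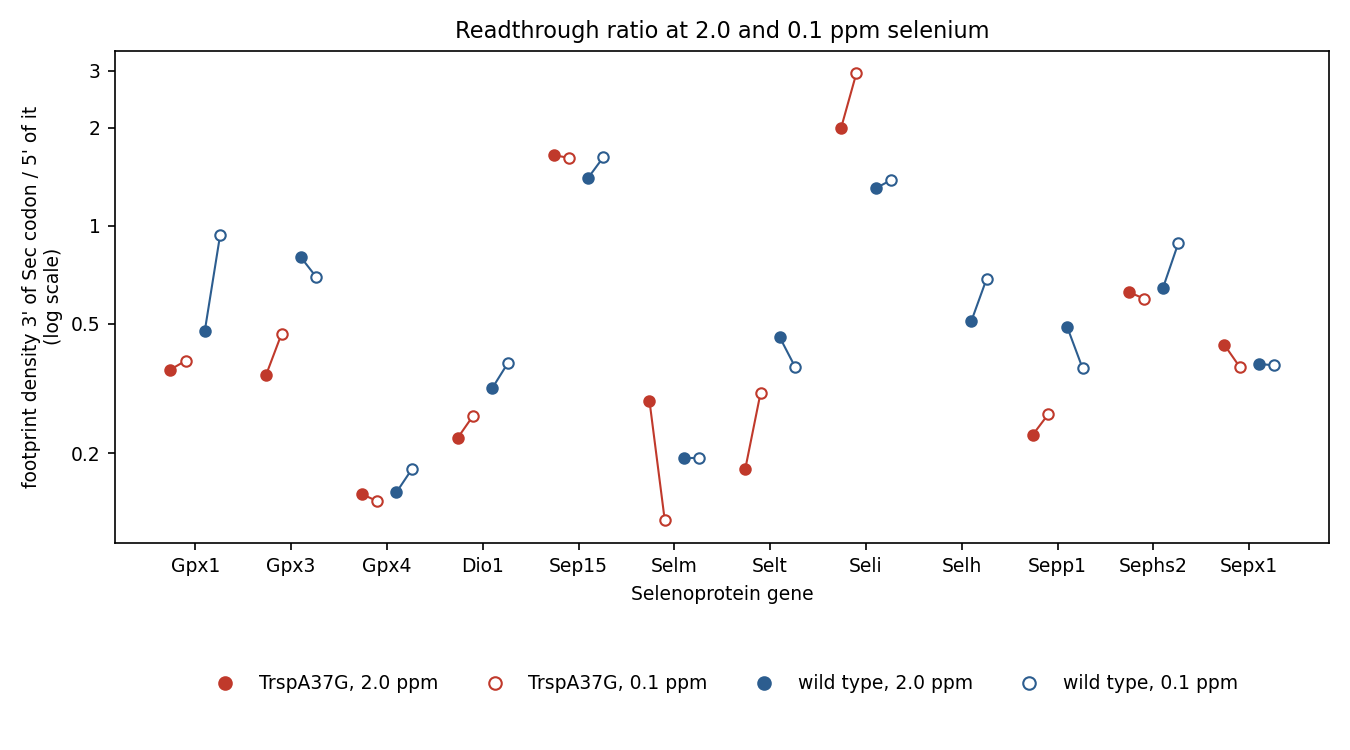
Readthrough ratio (footprint density 3′ of the first Sec codon over that 5′ of it, log scale) of the 12 genes with enough reads in at least 1 genotype. Filled symbols are 2.0 ppm, open symbols 0.1 ppm, and lines join the libraries of a genotype. In wild type Gpx1 stands at 0.477 (2.0 ppm) and 0.940 (0.1 ppm) and Sepp1 at 0.489 (2.0 ppm) and 0.366 (0.1 ppm), with the opposite slope.

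Selt, a thioredoxin-like protein of the endoplasmic reticulum membrane, was the single gene whose readthrough was called in TrspA37G. Its mRNA stood at 41.8 RPKM at 2.0 ppm and 29.9 RPKM at 0.1 ppm in TrspA37G, a ratio of 1.40 (1.30 to 1.5), and at 37.3 RPKM at 2.0 ppm and 34.3 RPKM at 0.1 ppm in wild type. Selt footprints stood at 23.7 RPFKM at 2.0 ppm and 17.3 RPFKM at 0.1 ppm in TrspA37G, a ratio of 1.37 (1.15 to 1.62), and at 26.2 RPFKM at 2.0 ppm and 24.7 RPFKM at 0.1 ppm in wild type. Density upstream of the UGA stood at 76.4 RPFKM at 2.0 ppm and 41.5 RPFKM at 0.1 ppm in TrspA37G, and rose 1.84-fold (1.42 to 2.39) on 142 reads at 2.0 ppm and 104 at 0.1 ppm. In wild-type livers it was 48.3 RPFKM at 2.0 ppm and 51.5 RPFKM at 0.1 ppm. Downstream it was 13.7 RPFKM at 2.0 ppm and 12.8 RPFKM at 0.1 ppm in TrspA37G and 21.9 RPFKM at 2.0 ppm and 19.0 RPFKM at 0.1 ppm in wild type. The readthrough ratio accordingly fell 1.71-fold (1.20 to 2.45) in TrspA37G, to 0.179 at 2.0 ppm, against 0.307 at 0.1 ppm. The wild-type values were 0.455 at 2.0 ppm and 0.369 at 0.1 ppm, a ratio of 1.23 (0.858 to 1.78). The responses differed by −1.08 (−1.79 to −0.37) on the log2 scale. The mRNA reads of Selt were few and uneven here. Their 3′ over 5′ ratio was 2.25 at 2.0 ppm and 1.97 at 0.1 ppm in TrspA37G and 1.51 at 2.0 ppm and 3.73 at 0.1 ppm in wild type, the last on 14 upstream reads. Divided by these, the TrspA37G response was −0.97 (−2.04 to 0.10) and was no longer called, while that of wild type was called higher and the difference was −2.57.

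Selt is also 1 of 5 small selenoproteins with a thioredoxin fold, with Sep15, Selm, Selh and Sepw1. Their footprint responses were all above 0 in both genotypes, with a median of 0.45 in TrspA37G and 0.33 in wild type, beside 0.14 and 0.21 over all genes. The counting interval excluded no change for 2 of the 5 in each genotype. Of all 20 genes, 11 were above 0 in TrspA37G and 17 in wild type. After scaling to the median gene, 5 of 5 stayed above 0 in TrspA37G and 4 of 5 in wild type, where Selt was below 0. Their mRNA responses were above 0 in 5 of 5 in TrspA37G (median 0.45) and in 3 of 5 in wild type (median 0.03). In footprints 1 of the 5 was called, Selh in wild type, beside 3 of all 20 genes there. Selh, a small nuclear redox protein, had footprints at 5.12 RPFKM at 2.0 ppm and 3.23 RPFKM at 0.1 ppm in TrspA37G and at 13.7 RPFKM at 2.0 ppm and 9.07 RPFKM at 0.1 ppm in wild type. In wild type they rose 1.51-fold (1.08 to 2.11) on 71 reads at 2.0 ppm and 80 at 0.1 ppm, a call that ended after scaling to the median gene. Selh mRNA was 2.19 RPKM at 2.0 ppm and 1.08 RPKM at 0.1 ppm in TrspA37G, on 20 reads at 2.0 ppm and 8 at 0.1 ppm, and 3.82 RPKM at 2.0 ppm and 4.44 RPKM at 0.1 ppm in wild type.

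Sep15, a protein of the endoplasmic reticulum lumen that binds a glycoprotein folding sensor, had more footprints at 2.0 ppm in both genotypes, with a different split between mRNA and efficiency. Sep15 footprints stood at 152 RPFKM at 2.0 ppm and 120 RPFKM at 0.1 ppm in TrspA37G, a ratio of 1.27 (1.18 to 1.36), and at 218 RPFKM at 2.0 ppm and 158 RPFKM at 0.1 ppm in wild type, a ratio of 1.38 (1.29 to 1.47). The mRNA stood at 179 RPKM at 2.0 ppm and 131 RPKM at 0.1 ppm in TrspA37G, a ratio of 1.36 (1.29 to 1.44), and at 158 RPKM at 2.0 ppm and 155 RPKM at 0.1 ppm in wild type, a ratio of 1.02 (0.972 to 1.07). Translational efficiency was 0.846 at 2.0 ppm and 0.911 at 0.1 ppm in TrspA37G, and 1.38 at 2.0 ppm and 1.02 at 0.1 ppm in wild type, a ratio of 1.35 (1.25 to 1.47). The efficiency responses differed by −0.54 (−0.71 to −0.36), inside 1.5-fold. With mRNA counted over the coding-sequence window, that difference was called. The readthrough ratio of Sep15 was 1.65 at 2.0 ppm and 1.62 at 0.1 ppm in TrspA37G and 1.41 at 2.0 ppm and 1.63 at 0.1 ppm in wild type, above 1 in all 4 libraries. Sep15 mRNA reads, which hold no ribosomes, were also denser 3′ than 5′ of the UGA. In TrspA37G they stood at 439 RPKM 3′ and 88.2 RPKM 5′ at 2.0 ppm, and at 303 and 65.1 RPKM at 0.1 ppm. The wild-type values were 350 RPKM 3′ and 90.7 RPKM 5′ at 2.0 ppm, and 372 and 75.9 RPKM at 0.1 ppm.

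Sels and Seli, both of the endoplasmic reticulum membrane, act in the disposal of misfolded proteins and in phospholipid synthesis. Sels had mRNA at 48.1 RPKM at 2.0 ppm and 51.3 RPKM at 0.1 ppm in TrspA37G and at 53.9 RPKM at 2.0 ppm and 61.8 RPKM at 0.1 ppm in wild type. Its footprints stood at 72.7 RPFKM at 2.0 ppm and 79.0 RPFKM at 0.1 ppm in TrspA37G and at 102 RPFKM at 2.0 ppm and 97.3 RPFKM at 0.1 ppm in wild type, and were within counting error in both. Seli had mRNA at 20.2 RPKM at 2.0 ppm and 24.2 RPKM at 0.1 ppm in TrspA37G and at 17.2 RPKM at 2.0 ppm and 16.3 RPKM at 0.1 ppm in wild type. The difference between these responses was −0.34 (−0.48 to −0.20), and −0.61 and called where mRNA was counted over the coding-sequence window. Seli footprints stood at 46.4 RPFKM at 2.0 ppm and 62.4 RPFKM at 0.1 ppm in TrspA37G, 1.35-fold lower (1.25 to 1.45), and at 40.9 RPFKM at 2.0 ppm and 41.7 RPFKM at 0.1 ppm in wild type. Seli was the lowest of all 20 footprint responses in TrspA37G. Its readthrough ratio was 2.00 at 2.0 ppm and 2.95 at 0.1 ppm in TrspA37G and 1.30 at 2.0 ppm and 1.38 at 0.1 ppm in wild type, from a downstream window of 18 nt, and the interval held no change in both. Seli mRNA reads were also denser 3′ than 5′ of the UGA. In TrspA37G they stood at 106 RPKM 3′ and 28.1 RPKM 5′ at 2.0 ppm, and at 109 and 37.5 RPKM at 0.1 ppm. The wild-type values were 130 RPKM 3′ and 29.6 RPKM 5′ at 2.0 ppm, and 121 and 26.4 RPKM at 0.1 ppm. For footprints in the downstream window Seli was the 1 of 12 genes called lower in TrspA37G (8.33%), at 90.3 RPFKM at 2.0 ppm (36 reads) and 179 RPFKM at 0.1 ppm (96 reads), beside 53.2 RPFKM at 2.0 ppm and 56.8 RPFKM at 0.1 ppm in wild type. Over the 7 endoplasmic reticulum genes, the median footprint response was 0.25 in TrspA37G and 0.09 in wild type.

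The thioredoxin reductases, which keep thioredoxin reduced and carry Sec next to the last residue, gave no footprint ratio above 1 in TrspA37G. Of 3 genes, 0 had a footprint response above 0 in TrspA37G (median −0.30) and 2 in wild type (median 0.06). Txnrd2, the mitochondrial enzyme, had mRNA at 4.89 RPKM at 2.0 ppm and 8.14 RPKM at 0.1 ppm in TrspA37G, and fell 1.66-fold (1.31 to 2.12). Wild-type livers had 9.99 RPKM at 2.0 ppm and 8.31 RPKM at 0.1 ppm, a ratio of 1.20 (0.998 to 1.45). The responses differed by −1.0 (−1.43 to −0.57) on the log2 scale, and by −1.22 where mRNA was counted over the coding-sequence window. Txnrd2 footprints stood at 3.97 RPFKM at 2.0 ppm and 4.60 RPFKM at 0.1 ppm in TrspA37G and at 16.3 RPFKM at 2.0 ppm and 13.8 RPFKM at 0.1 ppm in wild type. The lower mRNA thus stood beside a footprint response of TrspA37G within counting error, 1.16-fold lower (0.928 to 1.45). Its efficiency was 0.811 at 2.0 ppm and 0.565 at 0.1 ppm in TrspA37G, a ratio of 1.44 (1.03 to 2.00) that was called where mRNA was counted over the coding-sequence window, and 1.63 at 2.0 ppm and 1.66 at 0.1 ppm in wild type. Txnrd1, the cytosolic enzyme, had mRNA at 29.0 RPKM at 2.0 ppm and 31.9 RPKM at 0.1 ppm in TrspA37G and at 37.4 RPKM at 2.0 ppm and 37.5 RPKM at 0.1 ppm in wild type. Txnrd1 footprints stood at 36.7 RPFKM at 2.0 ppm and 45.1 RPFKM at 0.1 ppm in TrspA37G, 1.23-fold lower (1.14 to 1.32), and at 64.2 RPFKM at 2.0 ppm and 61.3 RPFKM at 0.1 ppm in wild type.

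Dio1, the liver deiodinase that converts thyroxine to its active form, had similar ratios in mRNA and footprints. Its mRNA stood at 130 RPKM at 2.0 ppm and 135 RPKM at 0.1 ppm in TrspA37G, and at 108 RPKM at 2.0 ppm and 76.8 RPKM at 0.1 ppm in wild type, a ratio of 1.41 (1.33 to 1.5). Dio1 footprints stood at 48.9 RPFKM at 2.0 ppm and 55.3 RPFKM at 0.1 ppm in TrspA37G, 1.13-fold lower (1.03 to 1.24), and at 55.6 RPFKM at 2.0 ppm and 39.9 RPFKM at 0.1 ppm in wild type, a ratio of 1.39 (1.26 to 1.54). Neither genotype was called, but the footprint responses differed by −0.66 (−0.85 to −0.46), the single called footprint difference (1 of 20, 5%). That call ended where the windows were counted alone or without the nucleotides between them. The mRNA difference was −0.55 (−0.67 to −0.44), and −0.62 and called where mRNA was counted over the coding-sequence window. Efficiency was 0.377 at 2.0 ppm and 0.410 at 0.1 ppm in TrspA37G and 0.513 at 2.0 ppm and 0.519 at 0.1 ppm in wild type. The readthrough ratio was 0.223 at 2.0 ppm and 0.261 at 0.1 ppm in TrspA37G and 0.317 at 2.0 ppm and 0.378 at 0.1 ppm in wild type. Dio2 and Dio3, the deiodinases of other tissues, had too few reads to compare.

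Sepx1 and Selo were called in no readout. Sepx1, which repairs oxidised methionine in proteins, had mRNA at 327 RPKM at 2.0 ppm and 358 RPKM at 0.1 ppm in TrspA37G and at 549 RPKM at 2.0 ppm and 518 RPKM at 0.1 ppm in wild type. Sepx1 footprints stood at 149 RPFKM at 2.0 ppm and 155 RPFKM at 0.1 ppm in TrspA37G and at 762 RPFKM at 2.0 ppm and 742 RPFKM at 0.1 ppm in wild type. Its readthrough ratio was 0.431 at 2.0 ppm and 0.369 at 0.1 ppm in TrspA37G and 0.376 at 2.0 ppm and 0.373 at 0.1 ppm in wild type. The stretch between its windows, 6.19% of the length, held 41.1% of its footprints at 2.0 ppm and 41.8% at 0.1 ppm in TrspA37G. In wild type the stretch held 37.8% at 2.0 ppm (36.3% to 39.3%) and 47.3% at 0.1 ppm (46.1% to 48.6%). The wild-type share of Sepx1 was therefore lower at 2.0 ppm, where that of Gpx1 was higher. Sepx1 mRNA reads in the stretch also exceeded its share of the length. Of 4023 wild-type mRNA reads of the coding-sequence window at 2.0 ppm, 2076 lay 5′ and 928 lay 3′. At 0.1 ppm, of 4478 such reads 2200 lay 5′ and 1198 lay 3′. Selo, a mitochondrial protein that attaches AMP to other proteins, had mRNA at 46.8 RPKM at 2.0 ppm and 35.6 RPKM at 0.1 ppm in TrspA37G and at 50.5 RPKM at 2.0 ppm and 42.6 RPKM at 0.1 ppm in wild type. Its footprints stood at 33.5 RPFKM at 2.0 ppm and 26.6 RPFKM at 0.1 ppm in TrspA37G, a ratio of 1.26 (1.17 to 1.35), and at 40.7 RPFKM at 2.0 ppm and 38.8 RPFKM at 0.1 ppm in wild type. The other 5 compared genes, Txnrd3, Sepw1, Selk, Sepn1 and Selm, were called in no readout.

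Gene by gene, Spearman's rho between TrspA37G and wild-type responses was −0.28 for mRNA, 0.38 for footprints and 0.30 for efficiency over 20 genes, and −0.27 for readthrough over 11 genes. These are descriptions, since genes of a library share its depth and scaling. Within TrspA37G, footprint and mRNA responses had a rho of 0.79, against 0.36 within wild type. Pearson's r for the same pairs was 0.65 in TrspA37G and 0.60 in wild type. In wild type the scarce Gpx3 had the highest response in both readouts, at 0.86 for mRNA and 1.13 for footprints. Pearson's r was not computed without Gpx3, so it does not show whether the gap lay in the ranks alone. Of the differences between genotypes, 2 of 20 were called for mRNA, both lower in TrspA37G (10%, Gpx3 and Txnrd2), and 0 of 20 for efficiency (0%). For readthrough 3 of 11 were called, 1 higher (9.09%, Gpx1) and 2 lower (18.2%, Selt and Sepp1).

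**Figure D4:**
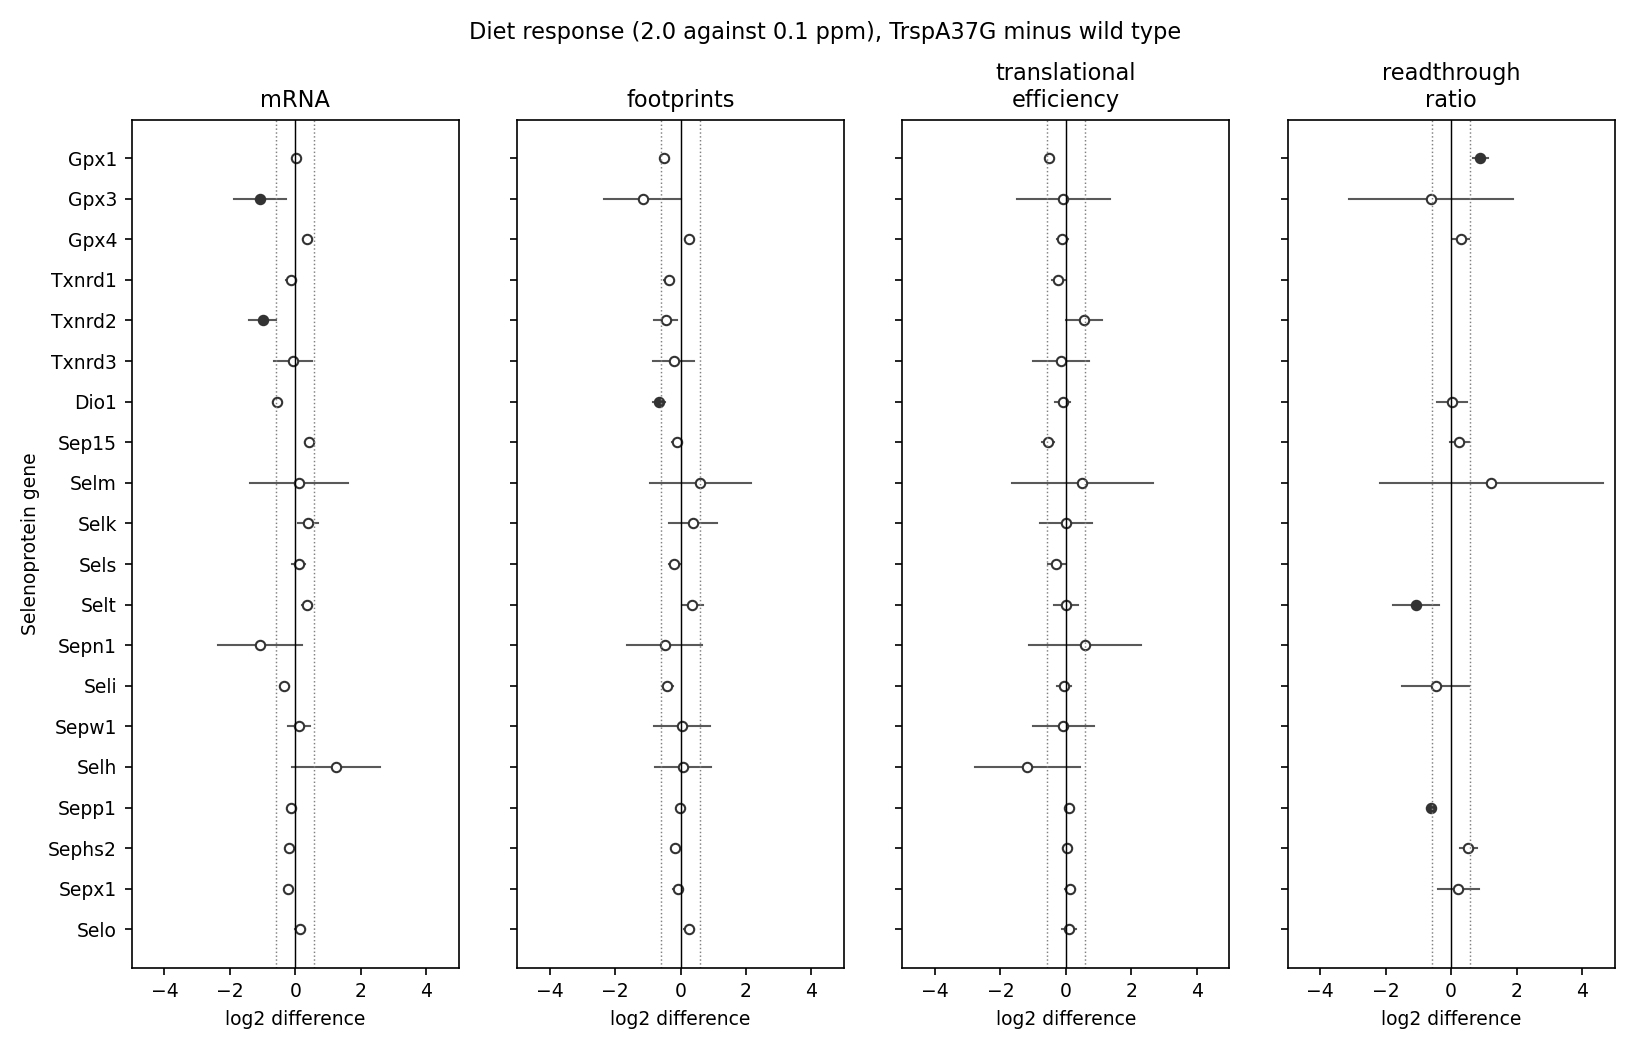
Difference between the diet responses, TrspA37G minus wild type (log2), for each gene (rows) and readout (panels). Bars are 95% counting intervals, filled symbols are called differences and dotted lines mark 1.5-fold. Readthrough holds 3 filled symbols, Gpx1 at 0.89, Selt at −1.08 and Sepp1 at −0.63.

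Placed on the series of 3 diets, most of the footprint responses lay in the lower step. The steps 0 to 0.1 ppm and 0.1 to 2.0 ppm share the 0.1 ppm libraries, so a library that stands off moves both, in opposite directions. Higher footprint calls numbered 14 of 20 (70%) in the lower step and 0 of 20 in the upper step in TrspA37G, and 11 of 20 (55%) and 3 of 20 in wild type. In wild type 2 genes, Gpx1 and Selh, were called higher in both steps. For readthrough the lower step held 7 higher calls of 10 (70%) in TrspA37G and 8 of 12 (66.7%) in wild type, and the upper step 0 in both. At 0, 0.1 and 2.0 ppm the readthrough ratio of Gpx1 was 0.164, 0.385 and 0.362 in TrspA37G and 0.197, 0.940 and 0.477 in wild type. That of Sephs2 was 0.226, 0.598 and 0.627 in TrspA37G and 0.338, 0.886 and 0.646 in wild type. In wild type both genes thus had their highest value at 0.1 ppm, as did Dio1, Gpx4, Selh, Seli and Sep15. Of 12 wild-type genes, 7 had a lower readthrough ratio at 2.0 than at 0.1 ppm and 4 a higher one. All were set against the same 0.1 ppm library. For Sepp1 the values were 0.235, 0.263 and 0.228 in TrspA37G and 0.167, 0.366 and 0.489 in wild type, where each step was upward. For Selt they were 0.0959, 0.307 and 0.179 in TrspA37G and 0.224, 0.369 and 0.455 in wild type.

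**Figure D5:**
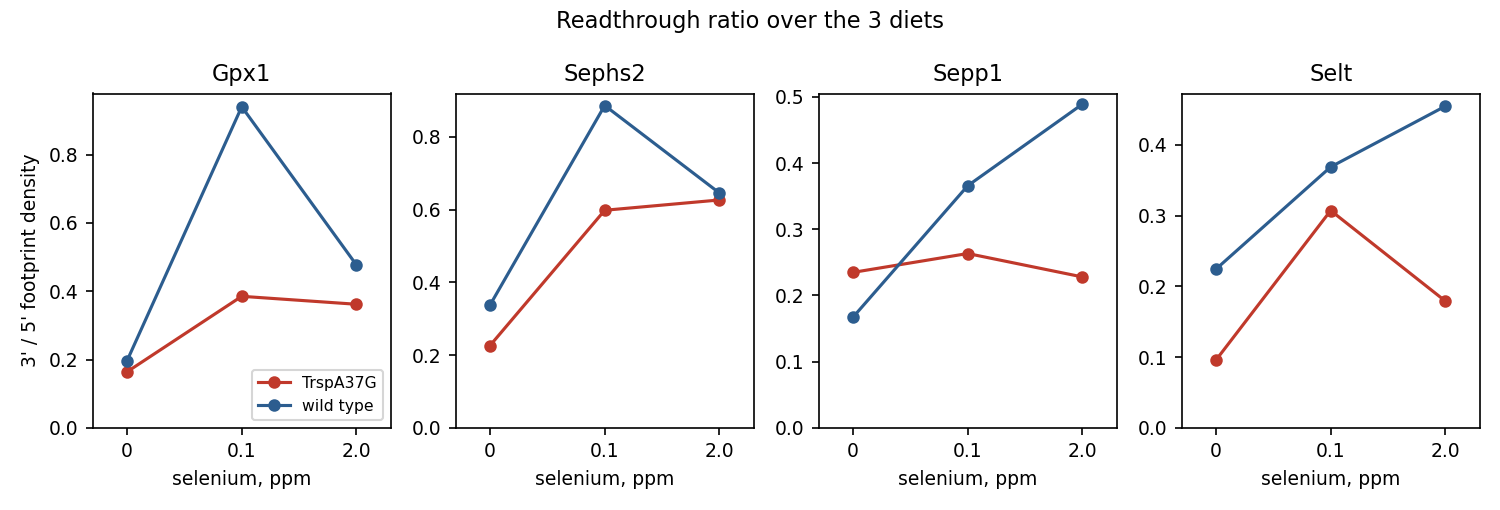
Readthrough ratio at 0, 0.1 and 2.0 ppm selenium (axis spaced evenly by diet) for Gpx1, Sephs2, Sepp1 and Selt, 1 library a point, with TrspA37G and wild type in different colours. Wild-type Gpx1 stands at 0.197, 0.940 and 0.477, and wild-type Sepp1 at 0.167, 0.366 and 0.489.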

How the data were processed

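Ribosome footprints and mRNA were sequenced from frozen mouse liver homogenised with cycloheximide. Footprints were made with RNase I and taken as monosomes, per the labels' protocols. Reads were mapped with Bowtie to mm9, per the submitters' processing notes and versions, filters and the handling of reads with several matches are unknown here. The authors deposited 4 tables of 23 genes: RPKM over whole mRNAs, and RPKM (mRNA) or RPFKM (footprints) over the coding sequence (less its first 15 and last 3 codons), over the part 5′ of the Sec codon and over the part 3′ of it. RPKM divides by the library's mapped reads, so a few abundant RNAs move all other values. In the coding-sequence tables, the deposited headers of column 8 say mRNA for the assay but RPFKM for the unit, and it was read as footprints.

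Whole reads were recovered from the deposited values for 795 of 795 values above 0 (tolerance 0.001 reads), with region lengths from GENCODE M21 for 647 and fitted for 148, where wholeness is built in and the smallest possible read numbers were taken. The coding-sequence window came out 57 nt shorter than the annotated codons without the stop, 1 codon more than the headers leave out. The windows leave 18 nt between them, and their placement, ending at the UGA, was inferred. For coding-sequence windows, 22 of 23 lengths came from the annotation.

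A gene was compared when the 2 libraries together had at least 10 reads in each region, and each had at least 1. Ratios are of the deposited values. Intervals (95%) are exact conditional binomial for ratios, exact conditional odds ratios up to 2000 reads and log-normal above that for ratios of ratios, log-normal for differences, and Clopper-Pearson for shares. They cover counting error alone, since each group holds 1 library. The reads carry no molecular identifiers, so copies of 1 molecule count as separate reads and the intervals may be too narrow. On simulated reads 95.1% of 5659 intervals held the true ratio and 0.930% of 1075 unchanged values were called. These reads were drawn with counting error alone, as the intervals assume, so the figures do not give error rates across mice or library preparations. A model of diet blocked by genotype could have been fitted and was not run. Values in every library are given for genes called in any readout and for the 10 genes with the most footprints. The members, lists and rules were chosen with earlier results of these data known. Python 3.11.15, numpy 2.4.6, scipy 1.17.1 and matplotlib 3.10.9 were used.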

Additional observations from a re-analysis of the deposited data

Results flagged for a closer look

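Diet responses of TrspA37G and wild type were compared for 20 genes each in mRNA, footprints and efficiency, and for 11 in readthrough. Of all these, 6 differed between genotypes by at least 1.5-fold with a counting interval that excluded no difference. With 1 library a group these differences were judged by counting error alone and were not tested across mice. On the log2 scale, TrspA37G minus wild type, they were −1.08 for Gpx3 mRNA, −1.0 for Txnrd2 mRNA, −0.66 for Dio1 footprints, 0.89 for Gpx1 readthrough, −1.08 for Selt readthrough and −0.63 for Sepp1 readthrough.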

How the results depend on the processing

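No paired analysis by replicate number was possible because the labels give none and each group holds 1 library, and a fit of diet blocked by genotype was not run. Of the alternatives, 50 counts of called genes kept within 1.5 times and 28 did not, and of the values of single genes 67 moved by less than their interval and 7 by more. None reversed. Counts for mRNA, footprints and efficiency are of 20 genes unless another number is given. With a 2-fold rule the calls were 0 for mRNA in each genotype, 1 for wild-type footprints and 0 for the footprint difference. They were 0 for wild-type efficiency, 0 for readthrough in each genotype (11 genes in TrspA37G, 12 in wild type) and 1 of 11 for the readthrough difference. A pseudocount of 1 left no counting interval, so its counts are of genes past 1.5-fold alone and are not calls. These counts were 2 for TrspA37G mRNA, 2 for the footprint difference, 2 for wild-type efficiency and 1 for its difference. Scaling to the median gene shifts footprints by 0.14 in TrspA37G and 0.21 in wild type, and efficiency by 0.13 in wild type (log2). After scaling, the calls under the full rule were 1 for wild-type footprints, 0 for wild-type efficiency and 1 for its difference. Upstream windows alone gave 1 higher call of 19 for TrspA37G footprints (5.26%). For the difference they gave 1 higher (5.26%) and 2 lower (10.5%) of 19. Downstream windows alone gave 1 lower call of 12 in TrspA37G (8.33%, Seli) and 1 higher of 13 in wild type (7.69%, Gpx3). For the difference they gave 0 of 12. Without the nucleotides between the windows the calls were 1 for wild-type footprints, 0 for the difference and 0 for wild-type efficiency. With mRNA over the coding-sequence window they were 0 for wild-type mRNA, 3 for the mRNA difference (Dio1, Seli and Txnrd2, without Gpx3), 1 for TrspA37G efficiency and 2 for its difference. Readthrough divided by the mRNA ratio gave 0 of 9 in TrspA37G and 2 of 9 in wild type. The causes were not tested. Depth limits Gpx2, Dio2 and Dio3, whose reads were too few, and Selh, Gpx3, Selm and Sepn1, whose intervals are wide.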
